A study of Homo sapiens with 10 samples.

Results

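The nuclear genes for the subunits of the respiratory chain and ATP synthase were followed in NB4 cells, a human acute promyelocytic leukemia line, after knockdown of GSE1 or inhibition of LSD1. Members were taken by symbol: the protein-coding genes of the NDUFA, NDUFB, NDUFC, NDUFS and NDUFV series with NDUFAB1 for complex I, SDHA to SDHD for complex II, the UQCR series with CYC1 for complex III, the structural COX genes for complex IV, and the ATP5 series with ATP5IF1 for complex V. The rule found 91 of the 60603 genes listed, namely 40 for complex I, 4 for complex II, 10 for complex III, 17 for complex IV and 20 for complex V. Of these, 84 had an adjusted p in each comparison, and the other 7 were too low to be tested.

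RNA was sequenced in 10 libraries, 2 biological replicates per condition. In the first experiment, a lentiviral vector (pLKO.1 puro) brought either of 2 short hairpin RNAs against GSE1 into the cells, shA1 or shB2, the controls received the vector without an insert (EV), and RNA was taken at 48 h. In the second experiment, NB4 cells received DMSO or 2 µM of the LSD1 inhibitor MC2580 for 24 h. Both hairpins were compared with the same EV libraries, so that the shA1 and shB2 values share their control and are given side by side. EV carries no hairpin, and effects that any hairpin may have cannot be told apart from those of GSE1 knockdown within either comparison. GSE1 is a chromatin protein found in complexes with LSD1 (KDM1A), a histone demethylase.

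Each value below is an estimate from 1 fit per experiment: a log2 fold change with its standard error (SE), an adjusted p from DESeq2's Wald test, and a base mean, which is the mean normalised count over the libraries of that experiment. Group levels in normalised counts were worked out from the base mean and the fold changes. A change is called where the adjusted p was under 0.01 and, for the study's own threshold, the log2 fold change was over 1 in size. The base means of all genes summed to 40543100 in the knockdown experiment and 41201100 in the inhibitor experiment, and 1.08% and 1.19% of these sums lay in the members. The median SE of the members was 0.12 under each hairpin and 0.21 under MC2580. In bulk RNA, fewer cells holding a transcript and less of it per cell cannot be told apart.

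The RNA of the targeted gene was lower under both hairpins. GSE1 stood at 58.7% of EV under shA1 (95% interval 48.9 to 70.5%, adjusted p = 2.47e-07, DESeq2) and at 58% under shB2 (48.3 to 69.7%, adjusted p = 7.66e-08). Under MC2580 its RNA was at 105% of DMSO, with an interval of 79.5 to 138%. The study reported that MC2580 lowered GSE1 protein while the transcript did not change significantly. KDM1A was at 98.1% of EV under shA1 and 102% under shB2. Among the promyelocyte markers, MPO had a base mean of 506765, and AZU1, PRTN3, CTSG and CD33 lay between 723 and 4012, whereas ELANE was at 1.10. Of 6 markers of other blood cells, CD3D had a base mean of 866 and the other markers lay at 29.1 or below.

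The places that the hairpins match in the canonical GSE1 transcript are shown because the hairpins differed in which subunits fell. The shA1 target lies in the 3′ UTR of GSE1 at chr16:85672696-85672716 (hg38, plus strand) and the shB2 target in its coding sequence at chr16:85666173-85666193. Capitals mark the bases opposite positions 2 to 8 of the antisense strand.
shA1 target: gaactcaccttgaCGTCAATg
shB2 target: ctgagcatgcttcACTATATc

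The respiratory chain in the inner mitochondrial membrane moves electrons from NADH and succinate to oxygen and pumps protons across that membrane. ATP synthase uses the proton gradient to make ATP. Complex I oxidises NADH, complex II oxidises succinate, complex III passes electrons from ubiquinol to cytochrome c, complex IV reduces oxygen, and complex V is ATP synthase. All subunits of complex II and most subunits of the others are encoded in the nucleus, while a small set of membrane subunits is encoded in mitochondrial DNA. Acute myeloid leukemia cells are known to rely strongly on oxidative phosphorylation.

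Members of complexes I, III, IV and V fell under both GSE1 hairpins, most of them by a modest amount and a few by a large amount, and none rose. Under shA1, 42 of 84 members fell and 0 rose at adjusted p under 0.01. Over all 16673 genes tested, 7.99% fell and 11.3% rose by the same call. Under shB2, 33 of 84 members fell and 0 rose, against 12.1% of all genes that fell and 14.2% that rose. The median log2 fold change of the members was −0.37 under shA1 and −0.30 under shB2, whereas the median of all genes tested was −0.002 and 0.001. No member rose at an unadjusted p under 0.05 under shA1, and 1 did under shB2, the barely expressed NDUFA4L2.

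Large changes were few. At the study's threshold 2 members fell under shA1, ATP5MF and SDHB, and 5 fell under shB2, NDUFA7, NDUFA12, UQCRQ, NDUFA6 and ATP5MC1. Of all genes tested, 0.786% fell and 4.32% rose at that threshold under shA1, and 2.91% fell and 5.58% rose under shB2. No member rose past it in either comparison (0 of 84 in each). The next lowest members, just outside the threshold, were NDUFAB1 at −0.77 under shA1 and ATP5F1E at −0.85 under shB2.

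**Figure D1:**
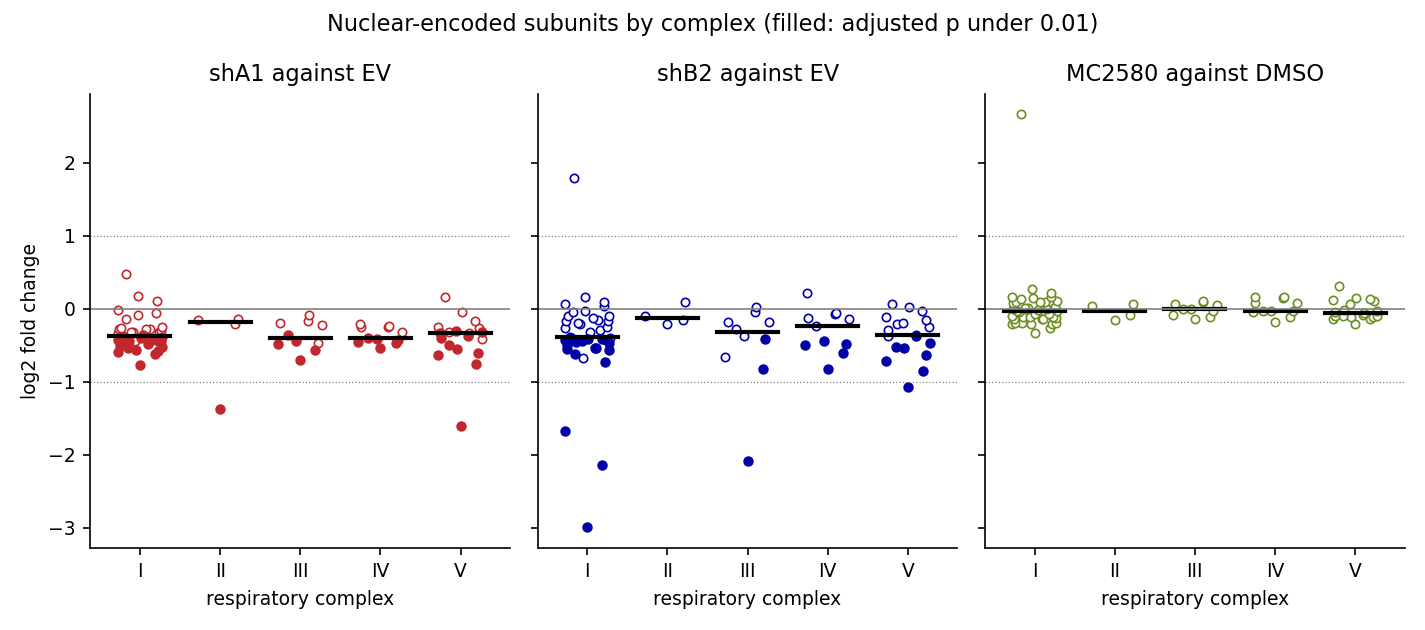
Log2 fold change of each of the 84 tested subunits (vertical axis) by respiratory complex (horizontal axis) under shA1, shB2 and MC2580; filled points have an adjusted p under 0.01, black bars are medians and dotted lines mark a log2 fold change of 1 in size. Most points of complexes I, III, IV and V lie below 0 under both hairpins, 2 points lie below −1 under shA1 and 5 under shB2, and the MC2580 points lie around 0 apart from NDUFA4L2 at 2.67, which did not pass the test.

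Other genes with short, abundant transcripts also had medians below 0 under both hairpins. The canonical transcripts of the tested members had a median length of 760.5 bases, against 3265 for the protein-coding genes tested under shA1. Among 445 other protein-coding genes with a transcript under 1000 bases and a base mean of at least 500, a set chosen after the data were seen, 38.2% fell under shA1 and 42.2% under shB2, 6.52% rose under each, and the median log2 fold change was −0.32 under each. Among the 47 members within the same limits, 55.3% fell under shA1, 46.8% fell under shB2 and 0 rose, with medians of −0.42 and −0.40. Mitochondrial and cytosolic ribosomal protein genes within these limits were not left out of the set of other genes. The difference between the 2 sets was not tested. The part of transcript length in the members' values was not tested.

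**Figure D2:**
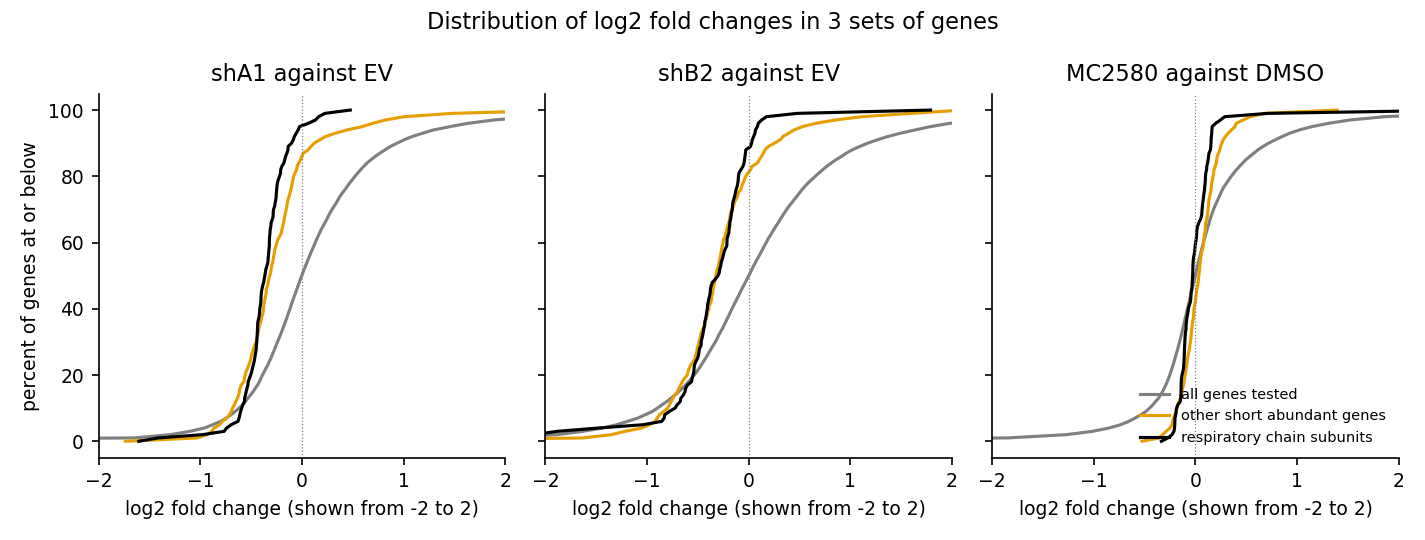
Percent of genes (vertical axis) at or below each log2 fold change (horizontal axis, shown from −2 to 2) for the 84 subunits, the 445 other short abundant genes and all genes tested, in each comparison. The curve of the subunits lies left of that of all genes under both hairpins over most of its range, but the curves cross in the lower tail. At the 10th percentile the subunits were at −0.59 under shA1 and −0.73 under shB2, and all genes at −0.62 and −0.90. Under shB2 the curve of the subunits runs close to that of the other short abundant genes.

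Within the members, the longer transcripts tended to lie nearer to 0. Spearman's rho between canonical transcript length and log2 fold change was 0.32 under shA1 and 0.27 under shB2 over the 84 tested members, and 0.28 and 0.20 over all protein-coding genes tested. Without the 7 members past the study's threshold it was 0.32 and 0.28. Under MC2580 it was −0.13 over the members. These are descriptions across genes of the same libraries, and genes are not independent replicates.

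The members spanned a wide range of levels. Per kb of canonical transcript, the base mean in the knockdown experiment was highest for ATP5F1B (34967), followed by ATP5MF (24520), ATP5MC2 (20810), COX4I1 (18035) and NDUFA13 (17543). The lowest members that were tested were NDUFA4L2 (24.2), NDUFC2-KCTD14 (64.2), NDUFS1 (252), NDUFA9 (253) and NDUFV3 (355) per kb. ATP5MF was thus among the most abundant subunit transcripts before it fell, whereas NDUFA6, at 776 per kb, was among the lower ones. These levels rest on 1 transcript length per gene, and the authors' counting may have spread reads over other isoforms.

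Complex I holds a catalytic core, which carries the flavin and iron-sulphur clusters, and many accessory subunits, which are needed for its assembly and stability. Of the 7 nuclear core subunits, 2 fell under each hairpin, and of 30 accessory subunits 17 fell under shA1 and 14 under shB2. The median log2 fold change of the core was −0.32 under shA1 and −0.10 under shB2, and that of the accessory subunits was −0.42 and −0.40. NDUFS1, the largest iron-sulphur subunit, was at −0.08 ± 0.12 (SE) under shA1 and 0.16 ± 0.12 under shB2.

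The other core subunits were uneven. NDUFS3 fell under shA1, by 0.56 on the log2 scale (adjusted p = 0.00022), and was at −0.04 under shB2. NDUFV2, an iron-sulphur subunit of the NADH-oxidising arm, fell under both hairpins, at −0.36 and −0.62. NDUFV1, which binds NADH and flavin, fell under shB2 at −0.42 (adjusted p = 0.000882) and was at −0.34 under shA1 (adjusted p = 0.0105). NDUFS7 and NDUFS8, which carry clusters near the ubiquinone site, did not pass the test under either hairpin, with values of −0.32 and −0.14 under shA1 and −0.13 and −0.10 under shB2.

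NDUFA7, an accessory subunit, showed the largest decrease of any member. Its level was 3246 normalised counts in EV, 2378 under shA1 and 408 under shB2, so that 12.6% of the EV level remained under shB2 (95% interval 10.3 to 15.3%). Its log2 fold change was −0.45 ± 0.14 under shA1 (adjusted p = 0.00647) and −2.99 ± 0.15 under shB2 (adjusted p = 2.32e-90). NDUFA7 (ENSG00000267855.5) lies on the minus strand at chr19:8308768-8321375 (hg38). The ribosomal protein gene RPS28 overlaps it on the other strand, with log2 fold changes of −0.16 and −0.46, and the kit does not mark strand.

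NDUFA12, an accessory subunit of the matrix arm, had a level of 3597 in EV, 2578 under shA1 and 812 under shB2. The level under shB2 was 22.6% of EV (19.1 to 26.7%, adjusted p = 2.48e-64), and that under shA1 was 71.7% (60.9 to 84.4%, adjusted p = 0.000552). The gene (ENSG00000184752.13) lies at chr12:94895297-95003748 on the minus strand. NDUFA6, an accessory subunit of the LYR protein family, went from 1168 in EV to 961 under shA1 and 367 under shB2. It stood at 31.4% of EV under shB2 (24.3 to 40.5%, adjusted p = 1.66e-17) and did not pass the test under shA1, with 82.3% (64.3 to 105%). NDUFA6 (ENSG00000184983.10) lies at chr22:42085526-42090884 on the minus strand.

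The lowest complex I member under shA1 was NDUFAB1, the mitochondrial acyl carrier protein, at 58.5% of EV (48.9 to 70.1%, adjusted p = 1.27e-07). It was at 67.9% under shB2 (56.7 to 81.3%, adjusted p = 0.000161). NDUFA10 fell under shA1 at −0.44 ± 0.10 and stood at 0.10 ± 0.10 under shB2. NDUFA4, named for complex I and since described as a subunit of complex IV, was at −0.02 ± 0.12 under shA1 and fell by 0.73 on the log2 scale under shB2 (adjusted p = 8.19e-09). Its paralogue NDUFA4L2 had a base mean of 22.8, and its log2 fold changes, 0.17 and 1.79 under the hairpins and 2.67 under MC2580, had SEs of 0.87, 0.84 and 1.52. The readthrough gene NDUFC2-KCTD14 had a base mean of 34.0 and gave the highest value under shA1, 0.48 ± 0.89.

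The other accessory subunits were uneven. Of the intermembrane and membrane arm subunits, NDUFB2 was at −0.53 and −0.47 under shA1 and shB2, NDUFS5 at −0.58 and −0.50, and NDUFC2 at −0.40 and −0.43, and each of them fell under both hairpins. NDUFS6, which holds zinc next to the NADH-oxidising arm, fell at −0.51 and −0.54, and NDUFA5 at −0.60 and −0.54. NDUFB1 fell under shA1 (−0.62 ± 0.16) and was at −0.20 ± 0.16 under shB2, and NDUFA9 fell under shA1 (−0.53 ± 0.14) and was at −0.16 ± 0.14. NDUFA1 fell under shB2 (−0.56 ± 0.11) and was at −0.32 ± 0.11 under shA1 (adjusted p = 0.0163). NDUFA2, NDUFB7 and NDUFC1 did not pass the test under either hairpin and lay between −0.31 and −0.03. NDUFV3 was at −0.06 under shA1 and −0.39 under shB2, and NDUFB5 at −0.37 and 0.04, and neither passed the test in either.

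Complex II consists of SDHA, the flavoprotein, SDHB, the iron-sulphur subunit, and the membrane anchors SDHC and SDHD, and it is also an enzyme of the citric acid cycle. SDHB was the only one of these 4 genes to fall, and it did so under shA1. Its level was 3931 in EV, 1514 under shA1 and 3390 under shB2. It stood at 38.5% of EV under shA1 (31.8 to 46.6%, adjusted p = 1.71e-20) and at 86.2% under shB2 (71.4 to 104%, adjusted p = 0.257). The values of SDHA, SDHC and SDHD were −0.15, −0.14 and −0.21 under shA1, and −0.10, 0.09 and −0.16 under shB2, and their 95% intervals lay within a log2 fold change of 0.5 in size in all 6 cases. SDHB (ENSG00000117118.9) lies at chr1:17018664-17054032 on the minus strand.

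In complex III, 5 of 10 members fell under shA1 and 3 under shB2. UQCRQ, a small membrane subunit, was the lowest under both hairpins. Its level was 3849 in EV, 2355 under shA1 and 904 under shB2, that is 61.2% of EV (51.5 to 72.6%, adjusted p = 4.05e-07) and 23.5% of EV (19.7 to 28%, adjusted p = 3.43e-56). UQCRQ (ENSG00000164405.11) lies at chr5:132866630-132868847 on the plus strand. Of the catalytic subunits, the Rieske iron-sulphur protein UQCRFS1 fell under shA1 (−0.49 ± 0.13) and was at −0.37 ± 0.13 under shB2 (adjusted p = 0.0169), whereas cytochrome c1 (CYC1) was at −0.20 and −0.19 without passing the test. The core proteins stayed close to 0, UQCRC1 at −0.09 and −0.04 and UQCRC2 at −0.17 and 0.03. UQCRH, the hinge protein, fell under both hairpins at −0.44 and −0.41. Its near-identical copy UQCRHL had a base mean of 126, and adding its level to that of UQCRH left the changes at −0.44 and −0.41.

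In complex IV, 6 of 11 tested members fell under shA1 and 5 under shB2. Most paralogues that are specific to certain tissues were not expressed: COX4I2, COX7B2 and COX8C were listed at 0 in both experiments, and COX6A2, COX6B2 and COX7A1 had base means under 1 in the knockdown experiment. Their widely expressed counterparts were abundant, with base means from 2841 for COX7B to 13761 for COX4I1. COX4I1, a regulatory subunit, was at −0.24 under shA1 and −0.23 under shB2 and did not pass the test in either. COX6A1, COX6B1 and COX7A2 did not pass it in either, COX7B fell in both (−0.41 and −0.61), and COX8A fell under shA1 (−0.43 ± 0.12) and was at −0.05 ± 0.12 under shB2. COX5B, a zinc-binding subunit, fell by 0.83 under shB2 on the log2 scale (adjusted p = 3.85e-13) and was at −0.25 under shA1 (adjusted p = 0.0613). COX7A2L, which helps to join complexes III and IV into supercomplexes, fell under shA1 to 72.2% of EV (61.5 to 84.8%) and was at 116% under shB2 (98.5 to 136%).

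ATP synthase holds a catalytic F1 head, a ring of c subunits, a peripheral stalk and small membrane subunits. In the head, 1 of 5 genes fell under each hairpin. ATP5F1A, the alpha subunit, was at −0.33 ± 0.09 under shA1 and passed the test (adjusted p = 0.00137). ATP5F1E, the epsilon subunit, fell to 55.4% of EV under shB2 (45.2 to 68%, adjusted p = 1.78e-07) and was at 79.4% under shA1 (64.7 to 97.3%, adjusted p = 0.0855). ATP5F1B, the catalytic beta subunit, had the highest base mean per kb of transcript of all members and stayed at 97.4% of EV under shA1 (86.2 to 110%) and 105% under shB2 (92.6 to 118%). The gamma and delta subunit genes ATP5F1C and ATP5F1D did not pass the test, with −0.25 and −0.27 under shA1 and −0.03 and −0.38 under shB2.

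The c subunit of the ring is encoded by 3 genes whose mature proteins are the same. ATP5MC1 fell under shB2, from 3634 in EV to 1728, or 47.6% of EV (39.2 to 57.7%, adjusted p = 1.1e-12), and stood at 2723 under shA1 (74.9% of EV, adjusted p = 0.0152). ATP5MC2 fell under shB2 at −0.54 and was at −0.17 under shA1, and ATP5MC3 fell by 0.38 on the log2 scale under each. ATP5MC1 (ENSG00000159199.14) lies at chr17:48892765-48895871 on the plus strand. All 4 peripheral stalk genes lay below 0, and 3 of them fell under shA1 and 1 under shB2. ATP5PO, the oligomycin sensitivity subunit, fell at −0.40 under shA1 and was at −0.25 under shB2. ATP5IF1, which inhibits the enzyme when it runs backwards, fell to 65.6% of EV under shA1 and was at 78.2% under shB2 (adjusted p = 0.0325).

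The small membrane subunits, which shape the dimer of ATP synthase, all fell under shA1 (5 of 5), and 3 of them fell under shB2. ATP5MF, subunit f, was the lowest member under shA1. Its level was 15169 in EV, 4988 under shA1 and 12430 under shB2, that is 32.9% of EV (28.3 to 38.1%, adjusted p = 1.19e-45) and 81.9% (70.7 to 95%, adjusted p = 0.0274). ATP5MF (ENSG00000241468.7) lies at chr7:99448475-99466186 on the minus strand and shares exons with the readthrough gene ATP5MF-PTCD1, which was at 0.16 ± 0.14 under shA1. The summed level of both genes changed by −1.36 under shA1 and −0.26 under shB2. ATP5MPL fell under both hairpins, to 59.2% and 61.1% of EV, and ATP5ME did so to 64.7% and 72.3%.

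The difference between the hairpins was tested on the shB2 value minus the shA1 value, with an SE from the sum of both variances. Both values share the EV libraries, so that this SE is an upper bound and the test is strict. At adjusted p under 0.01 and a difference over 1 in size, 4 members were lower under shB2 than under shA1 and 2 were higher, where 2.2% and 0.828% of all 16673 genes were. NDUFA7 differed by −2.54 ± 0.20 (adjusted p = 1.27e-33), NDUFA12 by −1.67 ± 0.17 (adjusted p = 2.59e-19), NDUFA6 by −1.39 ± 0.26 (adjusted p = 4.7e-06) and UQCRQ by −1.38 ± 0.18 (adjusted p = 3.82e-12). On the other side stood ATP5MF, with 1.32 ± 0.15 (adjusted p = 4.52e-15), and SDHB, with 1.16 ± 0.20 (adjusted p = 2.83e-07).

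Whatever the size of the difference, 6 members were lower and 4 higher under shB2, against 4.04% and 2.82% of all genes. The further members were NDUFA4 (−0.71 ± 0.17) and COX5B (−0.57 ± 0.15), lower under shB2, and COX7A2L (0.68 ± 0.17) and NDUFA10 (0.53 ± 0.15), higher under shB2. ATP5MC1, past the study's threshold under shB2 alone, did not pass this strict test of the difference (−0.66 ± 0.20, adjusted p = 0.0144). An SE that allows for the shared EV libraries was tried only for differences over 1 in size, so that it does not cover ATP5MC1. GSE1 RNA itself differed by −0.02 ± 0.19 between the hairpins. At the protein level, the study reported that shB2 depleted GSE1 more than shA1 did.

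**Figure D3:**
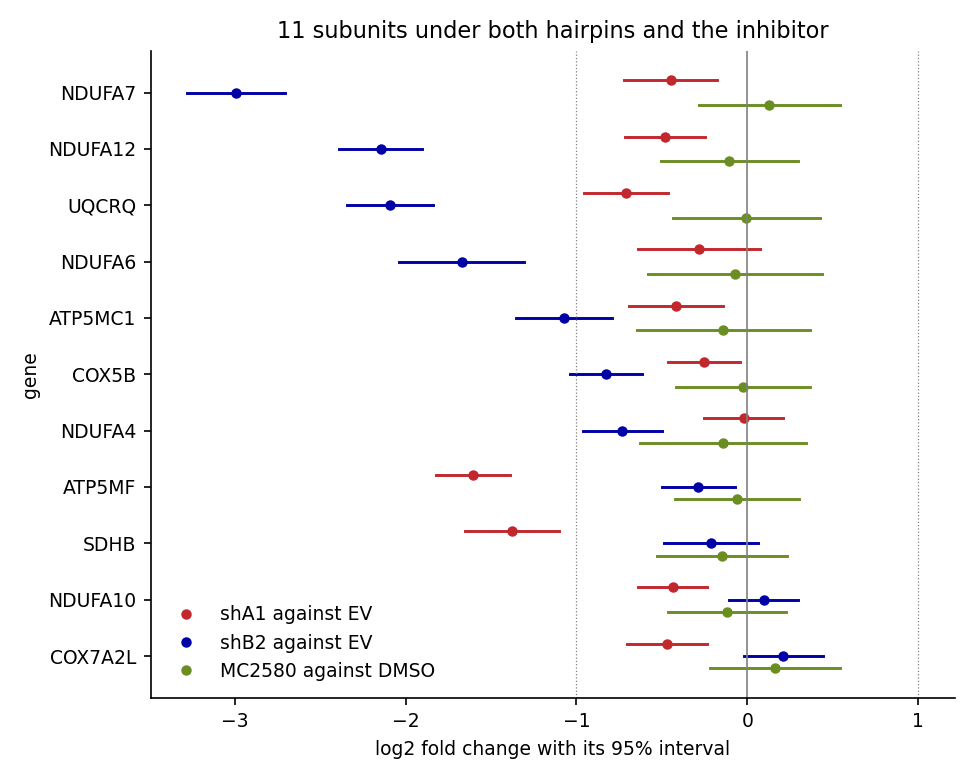
Log2 fold change with its 95% interval (horizontal axis) of the 10 subunits that differed between the hairpins at adjusted p under 0.01, and of ATP5MC1 (vertical axis), under shA1, shB2 and MC2580. NDUFA7, NDUFA12, UQCRQ and NDUFA6 lie below −1 under shB2 and above it under shA1, ATP5MF and SDHB lie below −1 under shA1 and above it under shB2, and all MC2580 intervals include 0.

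The canonical transcripts of the members were searched for the longest unbroken run of bases shared with each hairpin's target. Among the 5 genes past the threshold under shB2, the run with the shB2 target was 9 bases in NDUFA12, 8 in NDUFA6 and 8 in UQCRQ, 6 in ATP5MC1 and 5 in NDUFA7. A run of at least 8 was found in 26 of 84 members (31%) and in 41.4% of 12899 protein-coding transcripts, and one of at least 9 in 5.95% and 13.3%. A longer transcript offers more places for a run, and the median lengths were 760.5 bases for members and 3265 for all, so that these shares are not like for like. ATP5MF and SDHB each shared a longest run of 6 with the shA1 target. A run of at least 6 was found in 77.4% of members and 97.8% of transcripts, with the same limit of length. Of the other members that differed between the hairpins, NDUFA4 and COX5B, lower under shB2, held runs of 9 and 7. COX7A2L and NDUFA10, higher under shB2, each held a run of 8. NDUFA9, NDUFS1 and NDUFV2 also held a run of 9, and of these only NDUFV2 fell under shB2. The bases of the shB2 target opposite positions 2 to 8 of the antisense strand stood in full in UQCRQ, ATP5F1E, NDUFB4, NDUFB5 and NDUFS4. In UQCRQ they lay outside its run of 8. They were absent from NDUFA7, NDUFA12, NDUFA6 and ATP5MC1. Of the members that held them in full, UQCRQ and ATP5F1E fell under shB2 and NDUFB5 did not pass the test. NDUFB4 and NDUFS4 are not described here, and neither is the share of all transcripts that hold these bases. The same positions of the shA1 target were matched in full in ATP5PO, and not in ATP5MF or SDHB. The sites of the longest run are shown for the 3 genes past the study's threshold under shB2 with a run of 8 or more. Capitals mark the shared run. They lie in the 3′ UTR of NDUFA12 (chr12:94971358-94971378, minus strand), the 3′ UTR of NDUFA6 (chr22:42086121-42086141, minus strand) and the coding sequence of UQCRQ (chr5:132866962-132866982, plus strand). A match is a description of the letters, and its part in the fall of these genes was not tested.
NDUFA12: ctgtttaccaTTCACTATAat
NDUFA6: cacaaataaacTCACTATAca
UQCRQ: tccgcacgtCTTCACTAaagg

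Promoters of respiratory chain genes are known for sites of the ETS factor GABP (also called NRF2), of NRF1 and of YY1. In RefSeq windows from 250 bases before to 50 after the start (GRCh38.p14), found for 65 of the 84 tested members, the ETS letters CCGGAAG stood on either strand in 19 (29.2%), against 12.8% of 22199 promoters of protein-coding genes. The NRF1 letters GCGCATGCG stood in 15.4% of members and 2.36% of promoters. With 1 free base, as GCGCANGCG, which includes those matches, the shares were 32.3% and 9.64%. The YY1 letters AAGATGGCG stood in 12.3% and 2.41%. The 250 bases before the start are shown for the 3 genes that fell most under shB2 and for SDHB, which fell under shA1, with any of these letters in capitals. They lie at chr19:8321376-8321625 (NDUFA7, minus strand), chr12:95003698-95003947 (NDUFA12, minus strand), chr5:132866392-132866641 (UQCRQ, plus strand) and chr1:17054033-17054282 (SDHB, minus strand). SDHB and UQCRQ hold the ETS letters here, NDUFA12 holds the NRF1 letters with the free base, and NDUFA7 holds none of the letters, as does NDUFA6, which is not shown. Across or after the start, NDUFA7, NDUFA6 and SDHB each hold the YY1 letters.
NDUFA7: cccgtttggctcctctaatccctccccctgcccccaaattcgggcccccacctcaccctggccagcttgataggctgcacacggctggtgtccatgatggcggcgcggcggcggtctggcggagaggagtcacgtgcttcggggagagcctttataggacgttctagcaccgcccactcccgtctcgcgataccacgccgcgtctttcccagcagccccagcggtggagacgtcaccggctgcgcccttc
NDUFA12: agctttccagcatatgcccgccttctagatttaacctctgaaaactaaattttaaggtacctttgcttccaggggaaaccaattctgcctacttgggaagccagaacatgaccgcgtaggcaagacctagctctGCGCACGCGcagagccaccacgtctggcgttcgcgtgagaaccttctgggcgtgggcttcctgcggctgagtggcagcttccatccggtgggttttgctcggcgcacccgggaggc
UQCRQ: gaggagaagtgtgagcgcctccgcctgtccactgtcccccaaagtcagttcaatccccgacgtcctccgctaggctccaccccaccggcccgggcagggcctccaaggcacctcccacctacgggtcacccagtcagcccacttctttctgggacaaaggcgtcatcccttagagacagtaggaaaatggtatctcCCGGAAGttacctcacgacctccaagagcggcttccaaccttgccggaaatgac
SDHB: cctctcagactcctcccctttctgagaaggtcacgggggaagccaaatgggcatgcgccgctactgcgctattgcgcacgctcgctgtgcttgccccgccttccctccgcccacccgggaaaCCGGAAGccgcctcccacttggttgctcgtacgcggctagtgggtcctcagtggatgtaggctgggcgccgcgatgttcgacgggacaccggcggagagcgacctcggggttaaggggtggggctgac

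Under MC2580 no member passed the test. By DESeq2's test, 0 of 84 members rose and 0 fell at adjusted p under 0.01, with or without the fold threshold, and 0 had an unadjusted p under 0.05. Over all 18554 genes tested, 0.733% rose and 0.0269% fell, and 0.587% and 0.0162% did so past the study's threshold. The median log2 fold change of the members was −0.03, and 82 of 84 members had a 95% interval within a log2 fold change of 1 in size, and 39 within 0.5. The lowest member was NDUFA5 at −0.33 ± 0.19 (79.3% of DMSO, interval 61.3 to 103%), followed by NDUFC1 at −0.26, NDUFS1 at −0.22 and ATP5MC3 and NDUFS4 at −0.21 and −0.20. Beside NDUFA4L2, the highest were ATP5F1D at 0.31, NDUFS7 at 0.28, NDUFA11 at 0.22 and COX8A at 0.17.

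The 7 members past the threshold under a hairpin lay between 90.2% (SDHB) and 109% (NDUFA7) of DMSO. For ATP5MF the levels were 15772 in DMSO and 15117 under MC2580, and for NDUFA7 they were 4004 and 4380. A test of MC2580 minus each hairpin, added after the data were seen, called 2 members against shA1, ATP5MF (1.54 ± 0.22) and SDHB (1.23 ± 0.24), both higher under MC2580, where 0.691% of genes were higher and 1.85% lower. Against shB2 it called 6 members, NDUFA7, NDUFA12, UQCRQ, NDUFA6, COX5B and ATP5F1E, all higher under MC2580, where 2.77% of genes were higher and 3.47% lower. These contrasts set 24 h of inhibitor beside 48 h after transduction, and the time and the agent cannot be told apart.

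Other genes of the pathway were counted from fixed lists. Over all genes tested, 7.99% fell and 11.3% rose under shA1, and 12.1% fell and 14.2% rose under shB2. Of 47 assembly factors, 17 fell under shA1 and 26 under shB2, and 0 rose. The lowest under shB2 were SDHAF3, a factor for the iron-sulphur subunit SDHB, at 19.1% of EV (14.5 to 25.3%), ATPAF1, a chaperone of the F1 head, at 34.1%, and COX16, a complex IV factor, at 36.1%. Under shA1 SDHAF3 was at 63.3% and the lowest was NDUFAF6, a complex I factor, at 52.7%. Of the 13 subunits encoded by mitochondrial DNA, 9 fell under shA1 and 10 under shB2, with medians of −0.37 and −0.39. MT-CO3 was at 70.7% and 62.8% of EV and MT-ATP6 at 67.6% and 63.4%.

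Of 18 carriers and other entries to ubiquinone, 2 fell under shA1 and 3 under shB2. These shares lie near the 7.99% and 12.1% of all genes that fell. CYCS, cytochrome c, was among those that fell, at 77.6% and 40.7% of EV. In the citric acid cycle, 3 of 14 genes fell and 1 rose under shA1, and 5 fell and 3 rose under shB2. OGDH, of the oxoglutarate dehydrogenase complex, rose to 136% and 160% of EV, whereas DLST of the same complex was at 98.9% under shA1 and fell to 44.5% under shB2. Of 12 tested regulators of nuclear genes for mitochondria, 1 fell under shA1, a share near that of all genes. Under shB2, 4 of the regulators fell and 1 rose. PPRC1, a coactivator, fell under both (78.3% and 60.2%), and ESRRA, a nuclear receptor, fell under shB2 (55.4%) and was at 117% under shA1. Of 78 mitochondrial ribosomal protein genes 37 fell under shA1 and 42 under shB2, with medians of −0.42 and −0.41, and of 82 tested cytosolic ribosomal protein genes 12 and 41 fell, with medians of −0.16 and −0.27. By DESeq2's test, 0 genes of these lists passed adjusted p under 0.01 under MC2580, and at an unadjusted p under 0.05 there was 1 gene each among the carriers, the mitochondrial ribosomal proteins and the cytosolic ribosomal proteins.

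**Figure D4:**
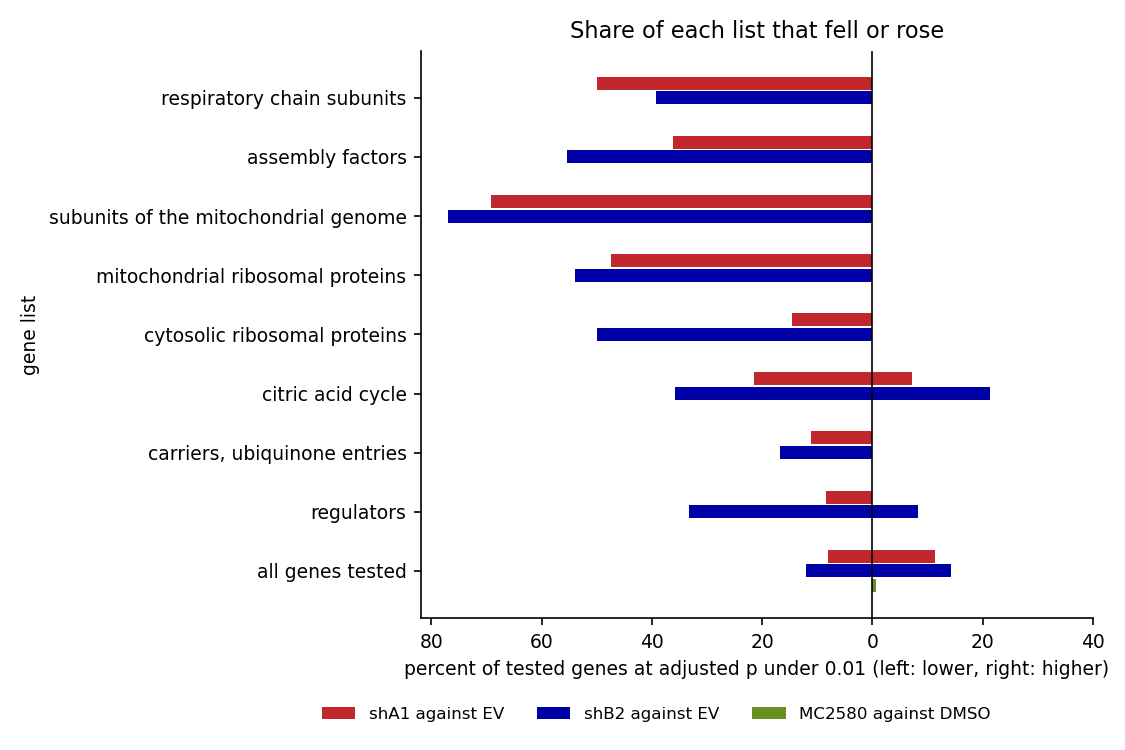
Percent of the tested genes of each list (vertical axis) that fell (bars to the left of 0) or rose (bars to the right) at adjusted p under 0.01 (horizontal axis) under shA1, shB2 and MC2580. The subunits fell in 50% of cases under shA1 and 39.3% under shB2, next to 7.99% and 12.1% of all genes tested, and the lists of mitochondrial ribosomal proteins and mitochondrial DNA show bars of similar or greater length.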

How the data were processed

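RNA from 10 NB4 libraries was made with a TruSeq RNA v2 kit, which does not mark strand, and sequenced on a NovaSeq. Per the labels and the study's methods, the authors used bcl2fastq 2, FastQC 0.11.5, STAR 2.7 on hg38, RSEM and DESeq2. The deposited values are the log2 fold changes and their SEs, the p-values and adjusted p-values, and the base mean, a normalised signal, as the authors estimated them. No count was refitted, and values of single libraries were not analysed here. Which hairpin each column belongs to was checked against the study's listed fold changes (1997 of 1997 equal within 0.0001).

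Adjusted p-values were recomputed by Benjamini-Hochberg and matched those deposited. Group levels assume 2 libraries per group. The difference between hairpins was a Wald test, adjusted over 16673 genes. Python 3.11.15, pandas 2.3.3 and scipy 1.17.1 were used. Positions and lengths come from canonical GENCODE 44 transcripts. Members and lists were chosen with earlier results of these data known. The genes named were members past the study's threshold or in the difference, the 5 highest and lowest per comparison, catalytic subunits and paralogues; others were named after their values were seen. Base means are averages over replicates, so that counting depth per library is unknown here. Some items are not reported here.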

Additional observations from a re-analysis of the deposited data

Results flagged for a closer look

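In 6 members the effect differed between the hairpins by a Wald test of the difference (adjusted p under 0.01, size over 1). On the log2 scale, shB2 minus shA1, the values were −2.54 for NDUFA7, −1.67 for NDUFA12, −1.39 for NDUFA6, −1.38 for UQCRQ, 1.16 for SDHB and 1.32 for ATP5MF. GSE1 itself stood at 58.7% of EV under shA1 and 58% under shB2.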

How the results depend on the processing

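Lowering the fold threshold to 0.5 on the log2 scale raised the members called lower to 17 under shA1 and 19 under shB2. Dropping the size threshold raised the members called higher under shB2 than under shA1 from 2 to 4. The other counts stayed within 1.5 times and the medians within the median SE under the other choices. These were a looser adjusted p of 0.05, a base mean of at least 50, no filter on low values and protein-coding genes alone. Further choices were subtraction of the median of all genes and, for differences over 1 in size, an SE that allows for the shared EV libraries. No paired analysis was possible because the tables analysed hold 1 estimate per comparison, and leaving out replicates was not run for the same reason. With 2 libraries per group, the p-values rest on the spread between these libraries as DESeq2 estimated it from 1 fit per experiment.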
